A study of Homo sapiens with 4 samples.

Results

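The genes described here are 10 protein-coding genes of human detoxification and redox metabolism that are commonly listed as targets of the transcription factor NRF2: AKR1C1, AKR1C2, AKR1C3, AKR1B10, NQO1, GCLC, GCLM, TXNRD1, SRXN1 and ABCC2. They are 10 of 24994 genes with a read on their own strand in either deposited table. They were picked by name with earlier ratios of these libraries in view, since regions of the AKR1C genes and of ABCC2 were among the extremes there. Their counts and ratios between libraries are therefore a description and support nothing. A gene's value is the sum of the reads in all genomic regions that HOMER, a peak annotation program, names for it and that lie on its strand. The 10 genes hold 2147 of the 3814162 regions of the J2 table and 1755 of the 2310971 regions of the Input table, both strands counted. On the genes' own strand these regions were classed as intron, intergenic, promoter or transcript end, not as exon or untranslated region. Of all regions, 0.248% in J2 and 0.314% in Input touch an annotated exon on the same strand. The sums, here and for the gene lists below, are therefore not read as mRNA levels.

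All RNA came from NCI-H1944, an established human lung adenocarcinoma line labelled wild type. Cells were exposed to 100 nM BAY-1217389, an inhibitor of the spindle checkpoint kinase MPS1, or to DMSO, its solvent, for 48 h, then kept for 24 h without either. From each lysate, RNA was pulled down with J2, an antibody to double-stranded RNA, and another 10% of it was set aside as total RNA, the Input. The groups are MPS1i J2, DMSO J2, MPS1i Input and DMSO Input, with 1 library each, so there is no replicate check, no test and no p-value, and each difference compares libraries, not conditions.

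NRF2 is held low in unstressed cells by KEAP1, which hands it to a ubiquitin ligase, and it accumulates when electrophiles or oxidants modify KEAP1 or when either gene is mutated, as happens in lung cancers. In the nucleus NRF2 pairs with small MAF proteins on antioxidant response elements and raises genes that reduce carbonyls and quinones, make glutathione, recycle thioredoxin and export conjugates. The J2 pull-down does not measure this activity; it shows which RNA of these genes was held by an antibody to paired RNA.

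A short form of the response element, TGACNNNGC on either strand, was looked for in RefSeq promoters (GRCh38.p14) reaching from 250 bases before to 50 after each start. It lay in the promoters of 2 of the 9 genes that have one in the table, GCLM and TXNRD1, and in 13.3% of all 35116 promoters. The first count is per gene, with a match in any of its promoters, and the share is per promoter, so they are not like for like. The stretches are shown because these elements are what links the genes on paper, with the matched letters in capitals and the strand on which they read. A match is a description and not a site, and AKR1B10 was not searched. Elements outside this window were not looked for, so a gene without a match here may still have one.
GCLM promoter, chr1:93909446-93909474, plus strand: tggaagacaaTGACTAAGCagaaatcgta
TXNRD1 promoter, chr12:104215670-104215698, plus strand: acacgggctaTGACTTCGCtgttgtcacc
TXNRD1 promoter, chr12:104215761-104215789, minus strand: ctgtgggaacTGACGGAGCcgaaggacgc
TXNRD1 second promoter, chr12:104286920-104286948, minus strand: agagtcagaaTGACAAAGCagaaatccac

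The 3 AKR1C genes lie side by side on chromosome 10 and are near copies. The coding sequences of AKR1C1 and AKR1C2 were 98.0% identical, with 19 of 969 positions different and an identical run of 186 bases, and AKR1C3 was 91.4% identical to AKR1C1 and 91.0% to AKR1C2. The stretch below, coding bases 103 to 132 of GENCODE release 29 transcripts, is the 30-base window in which the 3 genes differ most, at 9 positions, and only 5 of these separate AKR1C1 from AKR1C2; capitals mark the differing positions. How reads that map to several places were counted is not given in the sources used here, so the split of reads in near-identical stretches among the 3 genes is uncertain, as it is for AKR1B10 and AKR1B15, at 92.3% identity.
AKR1C1: TtAgaggCcACCaaattGgcaatTgaagcT
AKR1C2: CtAgaggCcGTCaaattGgcaatAgaagcC
AKR1C3: TtGgaggTcACAaaattAgcaatAgaagcT

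The libraries held 6697479 counts for MPS1i J2, 9793355 for DMSO J2, 4844956 for MPS1i Input and 6381610 for DMSO Input. The MPS1i Input reads lay in 484849 regions and the DMSO Input reads in 940751. Mitochondrial regions took 20.2% and 24.3% of the Input counts, MPS1i and DMSO, against 0.836% and 0.608% of the J2 counts. Of markers of other cells, the fibroblast list summed to 672 and 49 counts in J2 and to 341 and 36 in Input, MPS1i and DMSO in that order, mostly from FAP and none from COL1A1. The leukocyte list summed to 117 and 38 counts in J2 and to 59 and 17 in Input; the epithelial list summed to 364 and 640 in J2 and to 539 and 732 in Input, with KRT19 and NKX2-1 at 3 counts or fewer in each library. The part of these in the results below was not tested, and fewer cells of a kind and less RNA per cell cannot be told apart in bulk RNA.

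Below, CPM is the count scaled to a summed count of 1000000 per library, and ratios are log2 ratios of CPM with a 95% counting interval in brackets, which covers counting error only. An item is called higher or lower when its counts sum to at least 50, the ratio is at least 2-fold and the interval excluded 1. Across the 10 genes, the values spanned a wide range, with GCLC highest in J2, AKR1C1 highest in Input, and SRXN1 lowest in both.

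**Figure D1:**
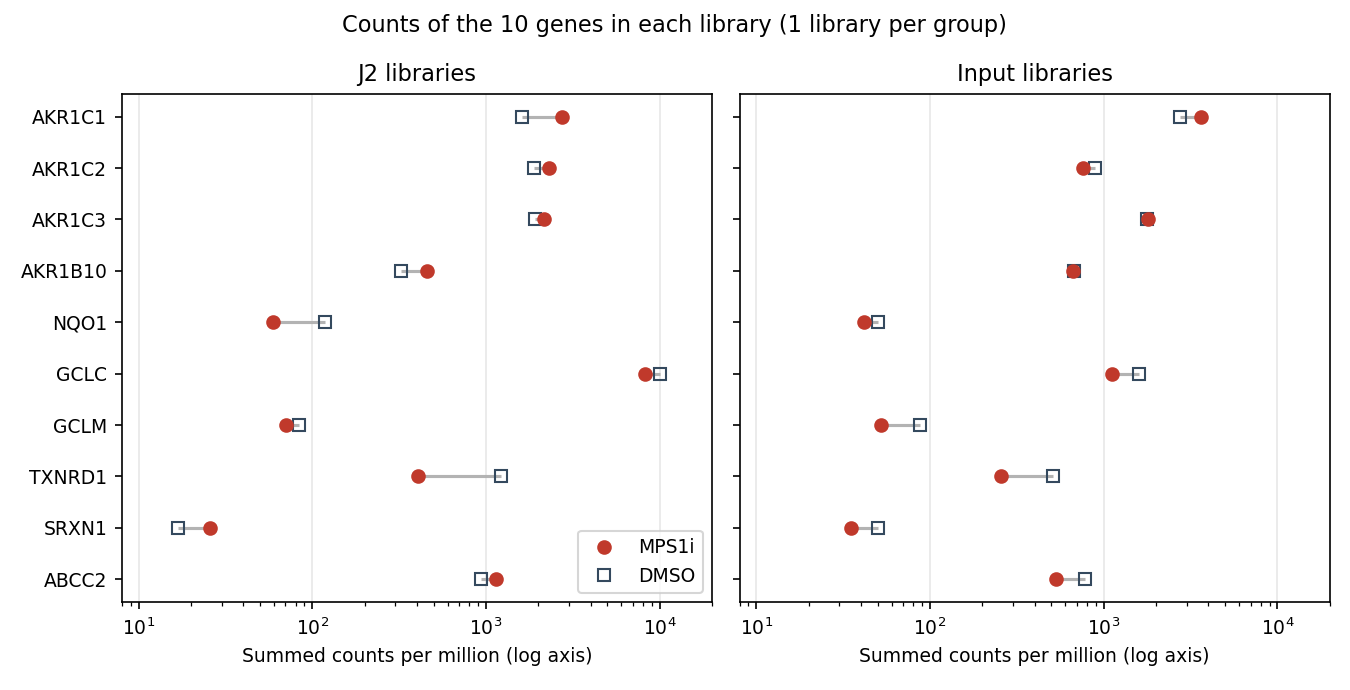
CPM of each gene (log axis) in the J2 libraries (left) and Input libraries (right), filled circles for MPS1i and open squares for DMSO, 1 library each. GCLC leads in J2 at 8206 (MPS1i) and 9976 CPM (DMSO), and TXNRD1 has the widest gap between the J2 libraries, 405 against 1218 CPM.

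In the J2 libraries, TXNRD1 was called lower after the MPS1 inhibitor and none of the other 9 genes passed. Called higher were 0 of 10, against 21.2% of the 13840 genes measured, and called lower 1 of 10, against 17.3%. The median log2 ratio was 0.22, against -0.03 over all genes. In the Input libraries none of the 10 was called higher or lower, where 17% and 13.5% of 12457 genes were, and their median was -0.39, against -0.06 over all genes. With the genes chosen on these contrasts, nothing is read from these shares.

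AKR1C1 reduces the ketone of progesterone and also handles carbonyls formed by lipid peroxidation. It had 18434 counts in MPS1i J2 and 15817 in DMSO J2, and 17676 and 17432 counts in MPS1i and DMSO Input. That is 2752 against 1615 CPM in J2, at 0.77 [0.74, 0.80], and 3648 against 2732 CPM in Input, at 0.42 [0.39, 0.45], so the ratio was positive in both kinds of RNA but short of 2-fold. AKR1C2, which inactivates dihydrotestosterone, had 15479 and 18423 counts in J2, MPS1i and DMSO, a ratio of 0.30 [0.27, 0.33], and 3699 and 5689 in Input, at -0.22 [-0.28, -0.16]. AKR1C3, which makes testosterone and prostaglandin F, had 14406 and 18740 counts in J2, at 0.17 [0.14, 0.20], and 8673 and 11382 in Input, at 0.01 [-0.04, 0.05]. In J2, by these sums, the 3 genes stood in the order of AKR1C1, AKR1C2 and AKR1C3, with intervals that do not overlap. None passed the rule. The order depends on the regions counted. Without intergenic regions AKR1C3 was at 0.37 [0.34, 0.41], above AKR1C2 at 0.28 [0.25, 0.31]. Over regions inside each gene that touch no exon, AKR1C1, AKR1C2 and AKR1C3 were at -0.38, -0.28 and -0.20.

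The most-read region held most of the J2 reads of AKR1C1, but 22.4% and 21.3% for AKR1C2 and 17.0% and 9.95% for AKR1C3, MPS1i and DMSO; here and below, most read means by the sum of both libraries of a table. For AKR1C1, the region chr10:4972749-4975130 in intron 7 had 13009 counts in MPS1i J2 and 10165 in DMSO J2, which is 70.6% and 64.3% of the gene's J2 reads, at 0.90 [0.87, 0.94]. In Input the most-read AKR1C1 region was another one, chr10:4963528-4963789 just inside intron 1, with 7216 counts in MPS1i and 7024 in DMSO. The matching J2 region had 20 and 12 counts, so J2 over Input there was -8.93 in MPS1i and -9.75 in DMSO. The most-read region of this gene thus differed between J2 and Input, while chr10:4968386-4968694 in intron 4, picked after its values were seen, held many reads of both, with 2340 and 1648 counts in J2 and 1331 and 1479 in Input.

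Regions of the same AKR1C gene also went in opposite directions. Of 14 AKR1C1 regions on its strand with 50 or more J2 counts, 6 were called higher and 2 lower. Of all regions with as many J2 counts, on either strand and with any gene name or none, 12.4% and 26.9% were. The shares in Input were 16.1% and 14.1%, and the counts of the other genes below stand against the same shares. Here a region is called farthest by the counting bound nearest to no difference, not by its ratio. The farthest of the higher ones lay in intron 6, with 51 counts in MPS1i and 17 in DMSO (2.11 [1.32, 3.02]). The farthest of the lower ones, in intron 5, holds an L1PA2 element, a young LINE-1 repeat. It had 222 counts in MPS1i and 806 in DMSO (-1.31 [-1.53, -1.10]). For AKR1C2, 1 of 22 was higher, with 105 and 68 counts (1.17 [0.72, 1.64]), and 6 were lower. The most read was chr10:4994351-4995319 in intron 9, with 3463 and 3923 counts (0.37 [0.30, 0.43]), and chr10:4995931-4998618 in intron 7 was called lower, with 226 and 943 counts (-1.51 [-1.73, -1.30]). In Input, AKR1C2 had a region at chr10:4990058-4990967 with 10 counts in MPS1i and 341 in DMSO (-4.63 [-5.77, -3.80]), in the last intron. For AKR1C3, 4 of 40 regions were higher and 10 lower in J2. Its most-read region, chr10:5101765-5102101 in intron 5, had 2456 counts in MPS1i and 1864 in DMSO (0.95 [0.86, 1.03]), and chr10:5055772-5056490 was called lower, with 4 and 87 counts (-3.73 [-5.80, -2.49]). In J2 the most-read region of each of the 3 genes shares 1 base with an annotated exon, and the farthest region called lower shares 0. The farthest region called higher shares 1 base for AKR1C2 and 0 for AKR1C1 and AKR1C3.

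In Input, the most-read regions of AKR1C2 and AKR1C3 had ratios near 0, with 978 counts in MPS1i and 1269 in DMSO (0.02 [-0.10, 0.14]) for AKR1C2 and 3632 and 4275 counts (0.16 [0.10, 0.23]) for AKR1C3. Called lower there were 1 of 12 AKR1C1 regions, with 45 and 120 counts (-1.01 [-1.55, -0.51]), 6 of 18 AKR1C2 regions and 9 of 33 AKR1C3 regions. The farthest of AKR1C3 lay in intron 1, with 8 and 45 counts (-2.02 [-3.39, -0.99]), and 2 of its regions were called higher.

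Outside AKR1C3 itself, an intergenic stretch past its end, chr10:5121981-5132763, was called higher in J2 with 138 counts in MPS1i and 9 in DMSO (4.41 [3.52, 5.65]). The overlapping stretch in Input, chr10:5123764-5132605, had 53 and 1 counts (5.55 [3.58, 11.46]), and both hold LINE-1 and Alu repeats. A further pair of AKR1C3 regions was singled out after the values were seen. In intron 1, chr10:5094528-5095068 had 2692 counts in MPS1i J2 and 1460 in DMSO J2 (1.43 [1.34, 1.52]), against 19 and 67 counts in Input, while chr10:5036695-5047840, annotated as HERVK14-int, an internal part of an endogenous retrovirus, had 473 and 2373 J2 counts (-1.78 [-1.92, -1.64]).

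AKR1B10 reduces retinal and aliphatic aldehydes and, unlike the AKR1C genes, lies on chromosome 7. It had 3063 counts in MPS1i J2 and 3192 in DMSO J2 (0.49 [0.42, 0.56]), and 3227 and 4292 in MPS1i and DMSO Input (-0.01 [-0.08, 0.05]). A region in intron 4, chr7:134533081-134534989, was the most read in both tables, with 38.6% and 40.1% of the gene's J2 reads and 82.5% and 85.1% of its Input reads, MPS1i and DMSO. Called higher in J2 were 3 of its 10 regions with enough reads, led by intron 2 at chr7:134531374-134531892, with 85 counts in MPS1i and 17 in DMSO (2.84 [2.11, 3.72]). In Input the farthest of the regions called higher was in intron 3, with 73 and 33 counts (1.53).

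NQO1 reduces quinones by transferring a pair of electrons and is a usual readout of NRF2 activity. It had 397 counts in MPS1i J2 and 1151 in DMSO J2, or 59.3 against 118 CPM (-0.99 [-1.16, -0.82]), just short of the 2-fold rule and past it with TMM factors, at -1.06. In Input it had 201 and 319 counts, MPS1i and DMSO (-0.27 [-0.53, -0.01]). When all regions inside the gene on its strand were summed, whatever their name, J2 had 6723 counts in MPS1i and 9663 in DMSO (0.02 [-0.02, 0.07]). The same sum in Input was 18878 and 17933 (0.47 [0.44, 0.50]). Of 7 NQO1 regions with enough J2 reads, 5 were called lower and none higher, the farthest being chr16:69718554-69718993 in intron 1 with 4 and 46 counts (-2.82 [-4.91, -1.52]). The most-read region, in intron 1, had 161 and 366 J2 counts (-0.63 [-0.91, -0.37]), and in Input, where none of 3 was called, 73 and 88 counts (0.13 [-0.34, 0.59]).

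The reads named for NQO1 are a small part of those within the gene. HOMER names a region for the nearest gene start, and 94.5% and 88.4% of the J2 reads, and 99.0% and 98.3% of the Input reads, that lay inside NQO1 on its strand carried the name of the small nucleolar RNA gene SNORD13H, MPS1i before DMSO. A single Input region, chr16:69711281-69711660, held 18652 counts in MPS1i and 17502 in DMSO (0.49 [0.46, 0.52]) and shares 1 base with an annotated exon. The same was seen for TXNRD1, where EID3 took 86.8% and 78.3% of J2 reads and 97.0% and 93.7% of Input reads, and for GCLM, where DNTTIP2 took 61.5% and 53.6% of J2 reads and 95.6% and 89.5% of Input reads. For GCLM a region of 28 bases, chr1:93889159-93889186, held 3052 and 3863 Input counts. For AKR1C1, AKR1C2, AKR1C3, GCLC and SRXN1 no read inside the RefSeq span of the gene was named for another, though inside the longer GENCODE model of GCLC some carried the name LOC101927136.

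GCLC and GCLM encode the catalytic and the modifier subunit of glutamate-cysteine ligase, the first and rate-limiting enzyme of glutathione synthesis. GCLC had 54962 counts in MPS1i J2 and 97697 in DMSO J2 (-0.28 [-0.30, -0.27]), and 5396 and 10183 in MPS1i and DMSO Input (-0.52 [-0.57, -0.47]). Per kilobase of covered region it was also the highest of the 10 genes in J2, at 213 CPM in MPS1i and 258 in DMSO, with AKR1C1 next at 109.7 and 73.0 for AKR1C2 in MPS1i. GCLM had 473 and 816 counts in J2, MPS1i and DMSO (-0.24 [-0.41, -0.07]), and 252 and 560 in Input (-0.75 [-0.97, -0.54]).

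Almost none of the GCLC reads came from inside the RefSeq span of GCLC. Intergenic regions held 99.6% of its J2 counts in both libraries, and 94.9% and 96.7% of its Input counts, MPS1i and DMSO. Between the RefSeq start of GCLC, at position 53545101 of chromosome 6, and the 3' end of the lncRNA AL033397.1 on the same strand lay 58265 counts in MPS1i J2 and 102840 in DMSO J2 (-0.27 [-0.29, -0.26]), and 10992 and 18658 in MPS1i and DMSO Input (-0.37 [-0.40, -0.33]). Inside RefSeq GCLC the 4 libraries had 242, 380, 273 and 337 counts, in the order MPS1i J2, DMSO J2, MPS1i Input and DMSO Input. The GENCODE model of GCLC extends to position 53616970 and so covers this stretch, and from these files the reads cannot be given to GCLC or to AL033397.1.

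The most-read region there, chr6:53556980-53561017, holds an LTR8 and an AluSg repeat and had 38691 counts in MPS1i J2 and 62041 in DMSO J2 (-0.13 [-0.15, -0.11]). Its neighbour toward GCLC, chr6:53554778-53556971, had 10764 and 21797 J2 counts and 2090 and 3945 in the matching Input region, so J2 over Input was 1.90 in MPS1i and 1.85 in DMSO, both called higher. One small GCLC region in intron 1 was called higher in J2, with 38 counts in MPS1i and 21 in DMSO (1.39 [0.60, 2.25]). In Input 3 of 10 were called lower, the farthest, upstream of the gene, with 31 and 144 counts (-1.80 [-2.43, -1.25]).

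**Figure D2:**
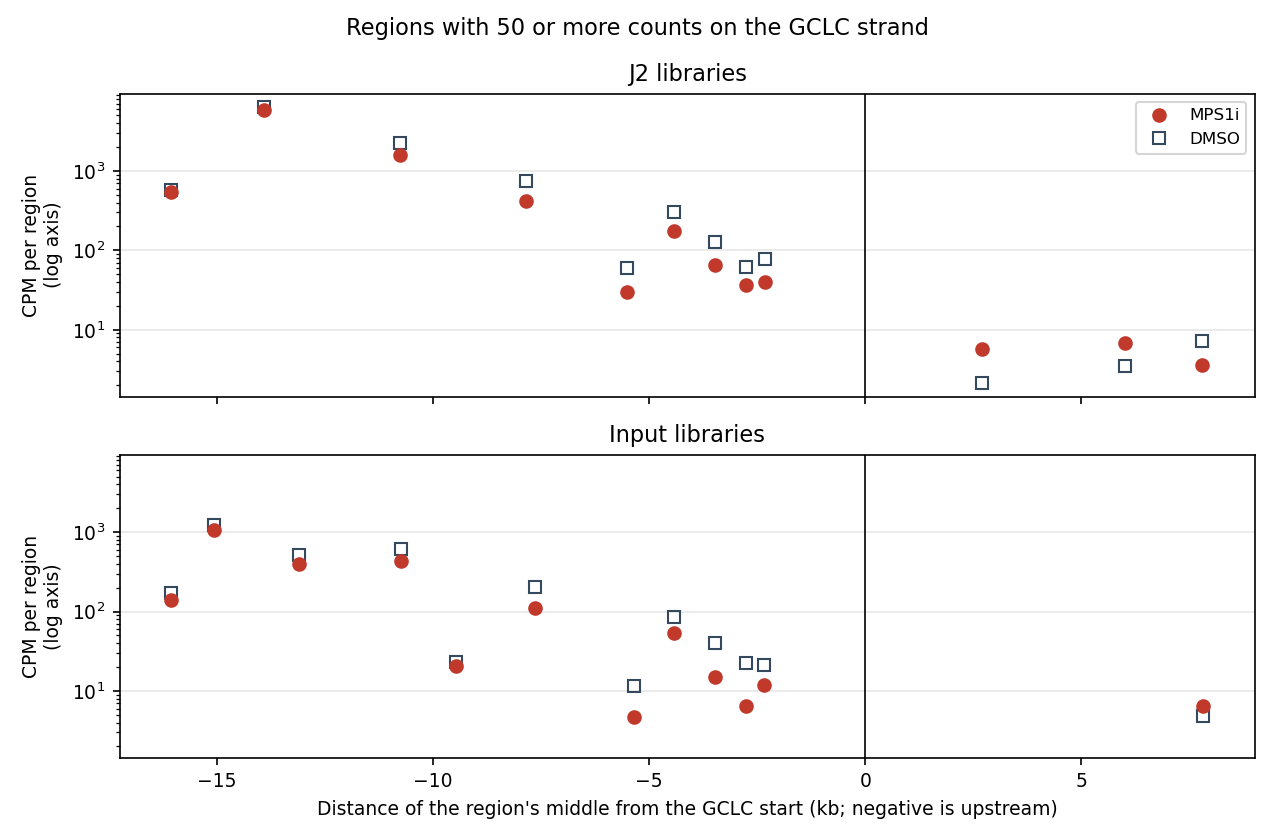
CPM per region (log axis) of regions with 50 or more counts on the GCLC strand, by distance from the RefSeq GCLC start in kb (negative is upstream), J2 above and Input below, filled circles for MPS1i and open squares for DMSO, 1 library each. The most-read J2 region lies upstream of the start and reaches 5777 CPM in MPS1i and 6335 in DMSO, while regions inside the gene stay low.

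For GCLM, regions of 50 or more counts numbered 6 in J2, with 0 called higher and 2 lower, and 4 in Input, with 0 higher and 2 lower. The most-read J2 region, chr1:93894730-93894952, had 139 counts in MPS1i and 199 in DMSO (0.03 [-0.29, 0.35]). An intron 2 region with an AluSz6 and an L1ME4c repeat was called lower in J2 with 25 and 102 counts (-1.46 [-2.17, -0.84]), and an intron 1 region in Input with 13 and 66 (-1.90 [-2.93, -1.07]). The most-read Input region of GCLM had 30 and 65 counts (-0.71 [-1.39, -0.07]).

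TXNRD1, cytosolic thioredoxin reductase, keeps thioredoxin reduced with NADPH, and was the member called in J2. It had 2710 counts in MPS1i J2 and 11930 in DMSO J2 (405 against 1218 CPM, -1.59 [-1.65, -1.53]), and 1237 and 3243 in MPS1i and DMSO Input (-0.99 [-1.09, -0.90]), just short of the rule and past it with TMM factors, at -1.02. The region chr12:104292403-104294226 in intron 2 supplied 56.5% and 66.8% of the J2 reads, with 1530 counts in MPS1i and 7973 in DMSO (-1.83 [-1.91, -1.75]), and the overlapping Input region, the most read there, had 542 and 1734 counts (-1.28 [-1.42, -1.14]). Of 20 TXNRD1 regions with enough J2 reads, 17 were called lower and none higher, the farthest being chr12:104254082-104254595, with 3 and 61 counts (-3.59 [-6.11, -2.18]). In Input 4 of 8 were lower, the farthest with 29 and 127 counts (-1.71 [-2.37, -1.14]).

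The TXNRD1 call depends on which reads inside the gene are counted. When all regions inside the gene on its strand were summed, whatever their name, J2 had 20467 counts in MPS1i and 54811 in DMSO, and Input 41399 and 51543 (0.08 [0.06, 0.10]), and with regions assigned by overlap with 1 annotated gene the J2 ratio was -0.87, which is not called. Regions touching no exon had 7070 and 33910 J2 counts (-1.71 [-1.75, -1.68]) and 3342 and 11634 Input counts (-1.40 [-1.46, -1.35]), both called lower. Regions touching an exon had 13397 and 20901 J2 counts (-0.09) and 38057 and 39909 Input counts (0.33 [0.31, 0.35]). In J2, 40 of 46 regions of TXNRD1 without an exon base were called lower and 1 higher, with a median of -1.79, and of 12 touching an exon 4 were lower, with a median of -0.05. In Input, 32 of 42 without an exon base were lower, and none of 6 touching an exon was called.

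**Figure D3:**
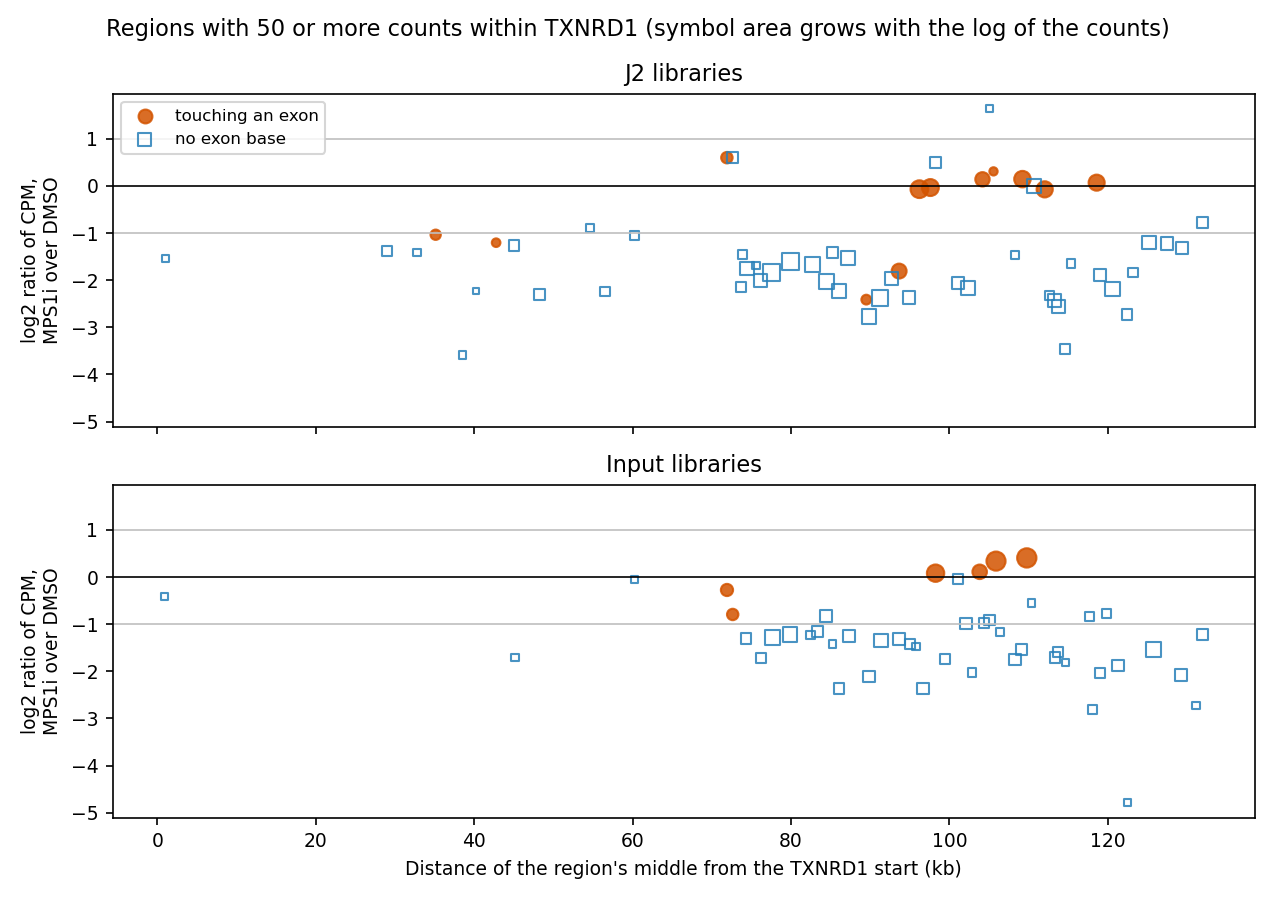
Log2 ratio of MPS1i over DMSO for regions with 50 or more counts inside TXNRD1, by distance from its start in kb, J2 above and Input below, filled circles for regions touching an annotated exon and open squares for regions with no exon base; grey lines mark 2-fold. Regions with no exon base lie mostly below the lower line, with medians of -1.79 (J2) and -1.41 (Input), and those touching an exon have medians of -0.05 and 0.10, with 4 of 12 called lower in J2.

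SRXN1, sulfiredoxin, restores over-oxidised peroxiredoxins. It had the fewest reads, 172 counts in MPS1i J2 and 165 in DMSO J2 (0.61 [0.29, 0.93]), and 170 and 318 in MPS1i and DMSO Input (-0.50 [-0.78, -0.23]). Reads named for SRXN1 lay mostly on the opposite strand, 86.0% and 89.4% in J2 and 76.2% and 77.3% in Input, MPS1i and DMSO, where over all genes 26.3% to 32.1% did. On its own strand the most-read J2 region lay at the 3' end with 47 and 41 counts (0.74 [0.11, 1.39]), and the most-read Input region had 74 and 80 (0.29 [-0.19, 0.76]). In Input a region in its only intron, chr20:649717-650547, was called lower with 25 and 96 counts (-1.52 [-2.24, -0.90]). In GENCODE the gene overlaps AL121758.1 on its own strand, so reads of the 2 genes cannot be told apart.

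ABCC2 encodes MRP2, an apical pump that exports glutathione and glucuronide conjugates. It had 7612 counts in MPS1i J2 and 9181 in DMSO J2 (1137 against 937 CPM, 0.28 [0.23, 0.32]), and 2572 and 4973 in MPS1i and DMSO Input (-0.55 [-0.62, -0.48]). Of 32 ABCC2 regions with enough J2 reads, 3 were called higher and 13 lower, and of 26 in Input 0 were higher and 14 lower. The region chr10:99805447-99805910 in intron 11 had 2111 counts in MPS1i J2 and 1710 in DMSO J2 (0.85 [0.76, 0.94]), against 1 and 38 counts in the matching Input region. J2 over Input there was 9.99 [8.10, 15.88] in MPS1i, which rests on 1 Input count, and 4.86 [4.41, 5.38] in DMSO.

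Other ABCC2 regions lay far from it in both directions. A region upstream of the gene that holds a MER1B repeat, chr10:99778118-99778527, was called higher in J2 with 91 counts in MPS1i and 17 in DMSO (2.93 [2.21, 3.81]). A region in intron 25 that holds an AluJb repeat, chr10:99840785-99841556, was called lower with 1 and 51 counts (-4.55 [-10.46, -2.58]). In Input the most-read region, in intron 27, had 534 and 558 counts (0.33 [0.16, 0.51]), and a region in intron 23 was called lower with 9 and 108 counts (-3.12 [-4.35, -2.21]).

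**Figure D4:**
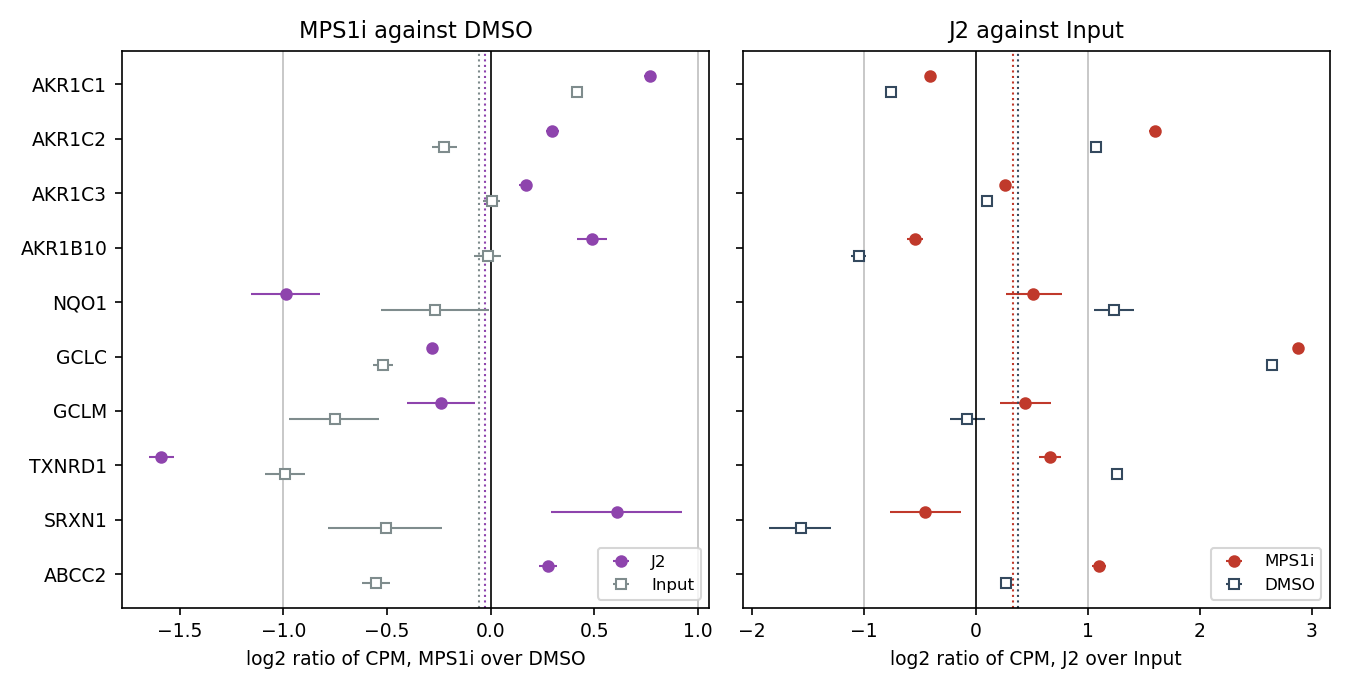
Log2 ratios of CPM with 95% counting intervals, MPS1i over DMSO at left (filled circles for J2, open squares for Input) and J2 over Input at right (filled circles for MPS1i, open squares for DMSO), 1 library per group; dotted lines are the medians of all genes and grey lines mark 2-fold. At left, TXNRD1 in J2 (-1.59) is the value past 2-fold. At right, GCLC is highest at 2.88 in MPS1i and 2.64 in DMSO, from reads almost all outside its RefSeq span.

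In J2 against Input, GCLC stood highest, at 2.88 [2.84, 2.92] in MPS1i and 2.64 [2.61, 2.67] in DMSO, and AKR1C2 was at 1.60 and 1.08, all called higher. The GCLC values rest almost wholly on the upstream stretch that cannot be given to GCLC or to AL033397.1. Over regions inside RefSeq GCLC without an exon base they were -0.64 [-0.90, -0.39] in MPS1i and -0.45 [-0.67, -0.24] in DMSO. In MPS1i, ABCC2 at 1.10 [1.03, 1.16] was called too, making 3 of 10 called higher and 0 lower, against 18.7% and 8.41% of 13500 genes. In DMSO, NQO1 at 1.23 and TXNRD1 at 1.26 were called higher and AKR1B10 at -1.05 and SRXN1 at -1.56 lower, 4 and 2 of 10, against 21% and 9.06% of 12755 genes. AKR1C1 was at -0.41 in MPS1i and -0.76 in DMSO and AKR1C3 at 0.26 and 0.10, which became -0.05 and -0.16 with TMM factors. The 2 tables have separate sets of regions, and the covered length was longer in J2 for each gene, for example 54500 against 37495 bases for TXNRD1 and 25082 against 21071 for AKR1C1.

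These ratios move with the scaling. The median of all genes in J2 against Input was 0.33 in MPS1i and 0.38 in DMSO, and 0.02 and 0.11 with TMM factors, a trimmed mean of gene ratios. The share of called genes that were higher was 68.9% in MPS1i and 69.9% in DMSO, and with TMM factors 44.8% and 50.6%. Relative to TMM factors, ABCC2 in MPS1i was at 0.79 and AKR1C2, NQO1 and TXNRD1 in DMSO at 0.81, 0.97 and 1.00, which is no longer called, and AKR1C1 in DMSO was at -1.02, which is then called lower. For J2 of MPS1i against DMSO, 55.1% of called genes were higher, and 67.8% with the upper quartile.

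The change of J2 enrichment divides the enrichment (J2 over Input) of MPS1i cells by that of DMSO cells. SRXN1 passed, at 1.11 [0.70, 1.52], and was the only one of the 10, against 9.35% of 13496 genes called higher and 7.74% lower. That call rests on 165 to 318 counts per library, on a strand shared with AL121758.1. Regions overlapping SRXN1 and no other annotated gene on its strand held 0 counts in each library. With both strands summed, SRXN1 was not called. ABCC2 was at 0.83, AKR1C2 and GCLM at 0.52, AKR1B10 at 0.50, AKR1C1 at 0.35, GCLC at 0.24 and AKR1C3 at 0.16, while TXNRD1 was at -0.60 and NQO1 at -0.72. Each of these shares its 4 libraries with the comparisons above. Over regions of these genes matched between the tables, 18 of 60 were called higher and 1 lower, against 13.6% and 8.84% of 7385 matched regions. In J2 against Input, 16 of 54 matched regions of these genes were called higher and 7 lower in MPS1i, against 23.7% and 16.9% of 6300, and 14 of 66 were higher and 19 lower in DMSO, against 23.1% and 17.4% of 8170.

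The reads of all the genes were also split by contact with exons, as for TXNRD1, a split made after the values were seen. The most-read regions of AKR1C1, AKR1C2, AKR1C3, AKR1B10 and ABCC2, in J2 and in Input, share 1 or 2 bases with an exon. Regions touching an annotated exon on the same strand were 0.248% of J2 regions and 0.314% of Input regions and held 13.0% and 14.7% of the reads outside mitochondria; regions that share only 1 or 2 bases with the exon held 12.1% and 13.8%. In J2, AKR1C3 was called higher over regions of its body touching an exon, with 6213 counts in MPS1i and 4132 in DMSO (1.14), and was at -0.20 over the others, with 5172 and 8694 counts. ABCC2 stood at 0.77 over regions touching an exon and -0.38 over the others in J2, and at -0.08 and -1.10 in Input, where the second was called lower. AKR1C2 stood at 0.40 and -0.28 in J2 and at 0.26 and -0.90 in Input, and AKR1C1 at 0.84 and -0.38 in J2 and at 0.41 and 0.44 in Input. NQO1 stood at 0.20 and -1.34 in J2, the second called lower, with 461 counts in MPS1i and 1712 in DMSO.

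The MPS1i over DMSO ratio was higher for regions touching an exon in 6 of 7 genes measured both ways in J2 and in 7 of 8 in Input. The exceptions were AKR1B10 in J2, at 0.47 against 0.53, and AKR1C1 in Input. The same held in 79.4% of 1550 genes in J2 and in 82.2% of 971 in Input. Over regions touching an exon, 1 of 7 was called higher in J2 and 0 lower, against 11.4% and 5.36% of 1680 genes, and 0 of 8 were called in Input, against 8.54% higher and 3.56% lower of 1124. Over regions with no exon base, 2 of 10 were called lower in J2 (NQO1 and TXNRD1) and 0 higher, against 24.7% and 13.7% of 10086 genes. In Input 2 were lower (TXNRD1 and ABCC2) and 0 higher, against 20.5% and 10.5% of 9276. Over all regions of the gene bodies none of the 10 was called, where 13.7% of 10256 genes were higher and 22.1% lower in J2, and 10.5% of 9492 higher and 18% lower in Input.

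**Figure D5:**
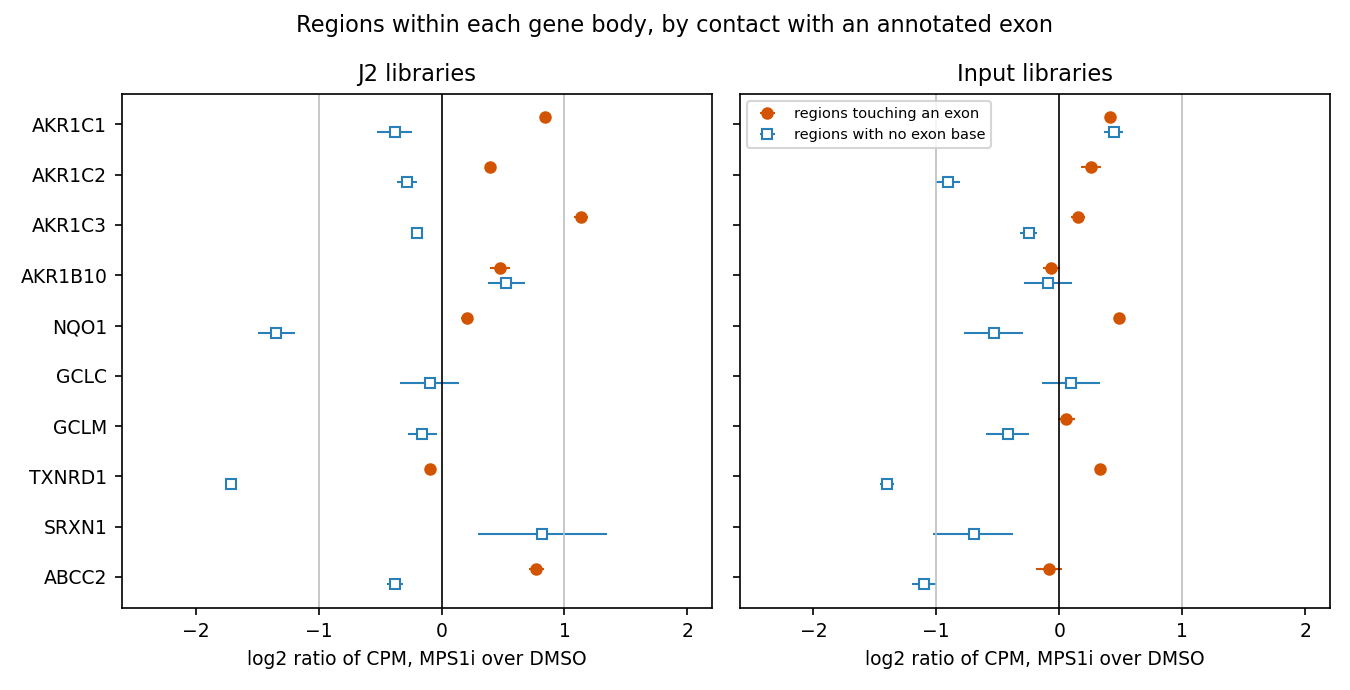
Log2 ratio of MPS1i over DMSO with 95% counting intervals for each gene, summed over regions of the gene body that touch an annotated exon (filled circles) or have no exon base (open squares), J2 at left and Input at right, 1 library per group; grey lines mark 2-fold. In J2, TXNRD1 (-0.09 and -1.71) and NQO1 (0.20 and -1.34) show the widest gaps, and AKR1B10 (0.47 and 0.53) shows almost none.

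Counted one by one, regions named for the 10 genes with 50 or more J2 counts on the gene's strand numbered 163. Of these 18 were called higher and 55 lower. The shares over all 36852 regions with as many J2 counts were 12.4% and 26.9%, but those lie on either strand, with any gene name or none. In Input 4 of 123 were higher and 40 lower, against 16.1% and 14.1% of all 16957, again on either strand.

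The regulators and the lists that follow are given as sums by HOMER name only, not over gene bodies or by exon contact. By name TXNRD1 was at -0.99 in Input, and over its gene body at 0.08, so these sums may not stand for the whole gene. Of the regulators, NFE2L2, the gene of NRF2 itself, was called lower in both kinds of RNA, with 64 counts in MPS1i J2 and 287 in DMSO J2 (-1.61), and 48 and 160 in MPS1i and DMSO Input (-1.33). It was the only regulator called in J2, so 0 of 8 measured were higher and 1 lower, where 21.2% and 17.3% of all genes were. KEAP1 had 416 and 1022 J2 counts (-0.75), which is not called. In Input, NFE2L1, a relative of NRF2, and MAFF, a small MAF protein, were called higher, with 286 and 115 counts (1.71) and with 38 and 13 counts (1.91). With NFE2L2, that is 2 of 9 measured higher and 1 lower, against 17% and 13.5% of all genes.

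Of 35 other listed NRF2 targets, 33 were measured in J2, of which 5 were called higher and 7 lower, against 21.2% and 17.3% of all genes, with a median of -0.39, against -0.03. The heavy and light ferritin chains were among the higher ones, FTH1 with 266 counts in MPS1i and 54 in DMSO (2.84) and FTL with 80 and 32 (1.86), as were the aldo-keto reductases AKR1B15 (1.89) and AKR1B1 (1.67) and the glutathione transferase GSTM3 (1.49). Among the lower ones were ABCC1, a pump of the same family as ABCC2, with 2587 and 14979 counts (-1.99), the pump ABCC3 (-1.38), glutathione reductase GSR (-1.49), malic enzyme ME1 (-1.20) and biliverdin reductase BLVRB (-1.26). In Input 6 of 32 were called higher and 4 lower, against 17% and 13.5% of all genes, with a median of -0.30, against -0.06. FTH1, AKR1B1, AKR1B15 and GSTM3 were called higher there too, and ABCC1 and GSR lower. HMOX1 (1.32) was called higher and TRIM16L (-1.54) and CYP4F11 (-1.07) lower in Input but not in J2, where they were at 0.29, -0.84 and -0.42.

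Near the AKR1C genes on chromosome 10, 5 of 7 listed neighbours were measured in J2. AKR1C4, the liver member of the family, with 281 counts in MPS1i and 115 in DMSO, NET1, with 264 and 148, and TUBAL3, with 90 and 54, were called higher, and the pseudogene AKR1C8P, with 119 and 457, was called lower. That is 3 higher and 1 lower, against 21.2% and 17.3% of all genes. In Input 1 of 4 was called higher, AKR1C4, with 63 and 31 counts, and 0 lower, against 17% and 13.5% of all genes.

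By the distance over 3 log2 ratios (MPS1i over DMSO in J2, the same in Input, and J2 over Input in DMSO), the 3 of 11249 genes nearest to AKR1C1 were ZNF720 (0.011), LINC02167 (0.076) and LINC01815 (0.089). Those nearest to ABCC2 were ZNF736 (0.047), MKLN1-AS (0.14) and FASTKD1 (0.16). ZNF720 had 67, 57, 64 and 63 counts in MPS1i J2, DMSO J2, MPS1i Input and DMSO Input, and LINC01815 had 31, 25, 28 and 28. AKR1C1 had far more, and ZNF736 had 241, 289, 84 and 158. The distance takes no account of counting error, which is wide at such counts, so the ranking is a description only. The ratios come from 4 libraries.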

How the data were processed

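J2-bound and Input RNA of 4 libraries were read from the authors' 2 deposited tables of raw whole-number counts per stranded region, 1 for J2 and 1 for Input. The SMARTer stranded total RNA kit was used, per the labels' protocols. Per the submitters' processing notes, reads were handled with STAR, featureCounts, HOMER, Trim Galore, cutadapt and Trimmomatic (versions not stated) on GRCh38, also called hg38. The handling of region calls, multi-mapping reads and duplicates is not given in the sources used here.

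Genes and lists were chosen with earlier results of these data known. All 10 genes are named; of each companion list at most 5 genes per direction, by the counting bound farthest from 1; per gene and table, the most-read region and the called regions with the farthest bound. Positions are as deposited, whose region length equals end minus start plus 1. Strands, exons and overlaps came from GENCODE release 29, gene bodies from RefSeq spans (GRCh38.p14). Counts were summed per HOMER gene name on the gene's strand and divided by the summed count (CPM); totals of 4844956 to 9793355 counts limit precision. Ratios carry Clopper-Pearson 95% intervals (2-fold and 50 summed counts for a call) and a pseudocount of 0.5; the change of enrichment used a delta-method interval, with at least 20 counts in the Input pair. J2 and Input regions were matched one to one at a reciprocal overlap of 90%. The steps were tested on simulated data. Alternatives covered scaling (edgeR 4.0.16 factors), gene assignment, strand, depth, repeats, single regions, class, thresholds and exons. Python 3.11.15, pandas 2.3.3, scipy 1.17.1 and bedtools 2.31.1 were used.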

Additional observations from a re-analysis of the deposited data

Results flagged for a closer look

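In 3 of the 10 genes the MPS1i library lay above the DMSO library in J2 and below it in Input with both 95% counting intervals excluding 1. AKR1B10, at 0.49 in J2 and -0.01 [-0.08, 0.05] in Input, did not meet this. AKR1C2 was at 0.30 in J2 and -0.22 in Input, SRXN1 at 0.61 and -0.50, and ABCC2 at 0.28 and -0.55, as log2 ratios of CPM. Over regions of the gene body with no exon base, J2 was at -0.28 for AKR1C2 and -0.38 for ABCC2, so for both the J2 sign turned, and for AKR1C2 Input was at 0.26 over regions touching an exon. With 1 library per group the difference between J2 and Input was not tested.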

How the results depend on the processing

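No paired analysis was possible because each group has 1 library. Of the single-gene values recomputed under other settings, 37 gained a call and 33 lost one in the same direction, and 25 turned their sign where a call stood before or after. The other 742 kept the call or its absence, but 78 of them turned their sign with no call in either setting. In all, 39 of the 50 ratios turned under at least 1 setting. The number of the 10 genes called in J2 (MPS1i against DMSO; 1 as reported) was 2 with TMM factors, median-of-ratios factors, thinned libraries, without each gene's most-read region, with introns only, without intergenic regions and over gene bodies without exon bases, 3 without repeats, 4 at 1.5-fold, and 0 when each region counted once or regions had to overlap 1 annotated gene. In Input (0 as reported) it was 1 with TMM or median-of-ratios factors, without mitochondrial and the 100 most-read regions, without repeats, with introns only, without exon-touching or without intergenic regions, and 2 at 1.5-fold or over gene bodies without exon bases. For J2 against Input it was 6 in MPS1i (3 as reported) by overlap with an annotated gene and 5 without repeats, and in DMSO (6 as reported) 3 with both strands or over gene bodies without exon bases and 0 when each region counted once. For the change of enrichment (1 as reported) it was 0 by overlap, with both strands or with each region once, 2 without repeats and 4 at 1.5-fold.

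Directions of J2 over Input that carried a call before or after reversed as follows. By overlap with an annotated gene, NQO1 was -1.91, GCLM -2.35 and TXNRD1 -1.48 in MPS1i, and NQO1 -1.45 and TXNRD1 -0.53 in DMSO. With each region once, AKR1C2 was -1.16, AKR1C3 -1.23, GCLC -0.15 and ABCC2 -0.72 in MPS1i, and AKR1C2 -0.43, GCLC -0.43 and TXNRD1 -0.22 in DMSO. AKR1B10 became 1.27 in MPS1i and 0.96 in DMSO without its most-read region, and 1.75 and 1.53 without repeats, where NQO1 was -0.050 in DMSO. GCLC was -0.64 in MPS1i and -0.45 in DMSO with introns only and over the gene body without exon bases, and -0.63 and -0.45 without intergenic regions. AKR1C2 in DMSO was -0.42 without exon-touching regions and -0.47 over the gene body without exon bases. With no call on either side, J2 over Input also turned for AKR1C3 in DMSO (0.10, lowest -0.96), ABCC2 in DMSO (0.27, lowest -0.48), GCLM in DMSO (-0.08, highest 0.87) and SRXN1 in MPS1i (-0.45, highest 0.51), and for AKR1C3 with TMM factors, at -0.05 in MPS1i and -0.16 in DMSO. For MPS1i against DMSO, 15 of 20 ratios turned, none with a call on either side. In J2 the ranges over all settings were -0.38 to 1.01 for AKR1C1, -0.28 to 0.51 for AKR1C2, -0.26 to 0.82 for AKR1C3, -1.34 to 0.25 for NQO1, -0.58 to 0.38 for GCLC, -0.35 to 0.50 for GCLM and -0.38 to 0.49 for ABCC2. In Input they were -0.90 to 0.72 for AKR1C2, -0.25 to 0.39 for AKR1C3, -0.10 to 0.85 for AKR1B10, -0.53 to 0.47 for NQO1, -0.61 to 0.11 for GCLC, -1.21 to 0.58 for GCLM, -1.40 to 0.08 for TXNRD1 and -1.10 to 0.19 for ABCC2. The change of enrichment turned for 7 of 10 genes, all but NQO1, TXNRD1 and SRXN1, with no call on either side. For these the cause was not tested. The settings on exon contact, intergenic regions and gene bodies were chosen after seeing the data. With 484849 regions read in MPS1i Input, J2 over Input in low-count genes such as SRXN1 is limited by depth.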
